A study of Mus musculus with 19 samples.

Results

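Naive lymphocytes are B and T cells that have not yet met their antigen, and 8 genes that they express, or that let them recirculate between blood and lymph nodes, are described here: Il7r, Cd27, S1pr1, Klf2, Foxo1, Lef1, Satb1 and Bach2. They were chosen by name, and every non-control probe that the array design assigns to one of them was taken, with S1pr1 carried under its older name Edg1. This gave 16 probes of 41174 on the array (8 genes of 19750 gene names), of which 13 passed the filter on dim signals and were tested: S1pr1 and Cd27 have 1 probe each, and Il7r, Lef1, Klf2, Satb1, Bach2 and Foxo1 have several. Il7r probe 3, well above background in 1 sample, and Lef1 probe 3 and Bach2 probe 2, well above background in none, could not be tested. Where a gene has several probes they are numbered by brightness, and the brightest one stands for the gene in counts.

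CAWS, a water-soluble mannoprotein and β-glucan fraction shed by Candida albicans into its culture medium, was injected intraperitoneally at 1 mg on 5 consecutive days into male DBA/2 mice, which develop a lethal vasculitis, and male B6 (C57BL/6J) mice, which develop a milder one. Ages given for the mice run from 5 to 14 weeks. Leukocyte RNA from blood of surviving mice was taken right after the last injection (0 w), at 2 w and 4 w, and at 8 w and 9 w, so that every sample, the 0 w reference included, had received CAWS and no untreated group was measured. The 18 RNA samples form 10 groups of strain and week: 2 samples in each DBA/2 group and in the B6 groups of 0 w, 4 w and 8 w, and 1 sample in those of 2 w and 9 w. The titles number the samples of a group as replicates and the labels call them biological replicates, except that the replicate label of DBA/2 2 w replicate 2 names a technical replicate against its title. The labelling protocol speaks of a pooled sample, while the methods speak of cRNA of single mice on each array, so that p-values measure a spread between RNA samples. That spread comes from the groups of 2 samples and is shared by all groups. The B6 groups of 2 w and 9 w, with 1 sample each, have no spread of their own. Later DBA/2 groups hold survivors only.

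Naive T cells need the cytokine IL-7, received by the receptor chain that Il7r encodes, to survive between encounters with antigen. They leave lymphoid tissue along a gradient of sphingosine-1-phosphate, which the receptor S1pr1 senses, and the transcription factors Foxo1 and Klf2 are known to keep Il7r and S1pr1 expressed. Lef1, Satb1 and Bach2 are transcription factors of the resting or early lymphocyte state, and on activation into effector cells lymphocytes are known to lower many of these genes.

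In DBA/2 mice 7 of the 8 genes fell between 0 w and the mean of 4 w and 8 w, and only Klf2 missed the threshold. Bach2 fell by 1.26 on the log2 scale, Lef1 by 1.06 and Foxo1 by 1.01. In B6 mice 1 of the 8, Il7r, fell in the same comparison, by 0.40, a count that was 1 to 3 when single samples were left out and 3 with the replicate block, array weights or slide as a random block. The dimmer probes 2 of Lef1 and Foxo1 also passed there, calls lost without B6 0 w replicate 2 for Lef1 and without B6 0 w replicate 1 for Foxo1. Values are log2 processed signals from which each array's 75th percentile has been subtracted, called normalized log2 signals here, and a gene is said to rise or fall where limma's test, adjusted over all probes tested by the Benjamini-Hochberg method, gave a p below 0.05. Of all probes tested 22.9% passed in DBA/2 mice (9.73% of all rising and 13.2% falling), and 14.9% passed in B6 mice (7.28% rising and 7.66% falling). With normexp background correction 4 of the 8 genes passed in DBA/2 mice (Lef1, Satb1, Bach2 and Foxo1), as did 586 of all probes in place of 5263. The Il7r call in B6 mice was lost with normexp, with no filter on dim probes, and relative to T or B cell genes (below). Without scaling between arrays its B6 change was 0.13. The median change of the 8 genes was −0.71 in DBA/2 mice and −0.21 in B6 mice, against −0.14 and −0.08 over all probes. In bulk leukocyte RNA, fewer cells of a type and less RNA per cell cannot be told apart.

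**Figure D1:**
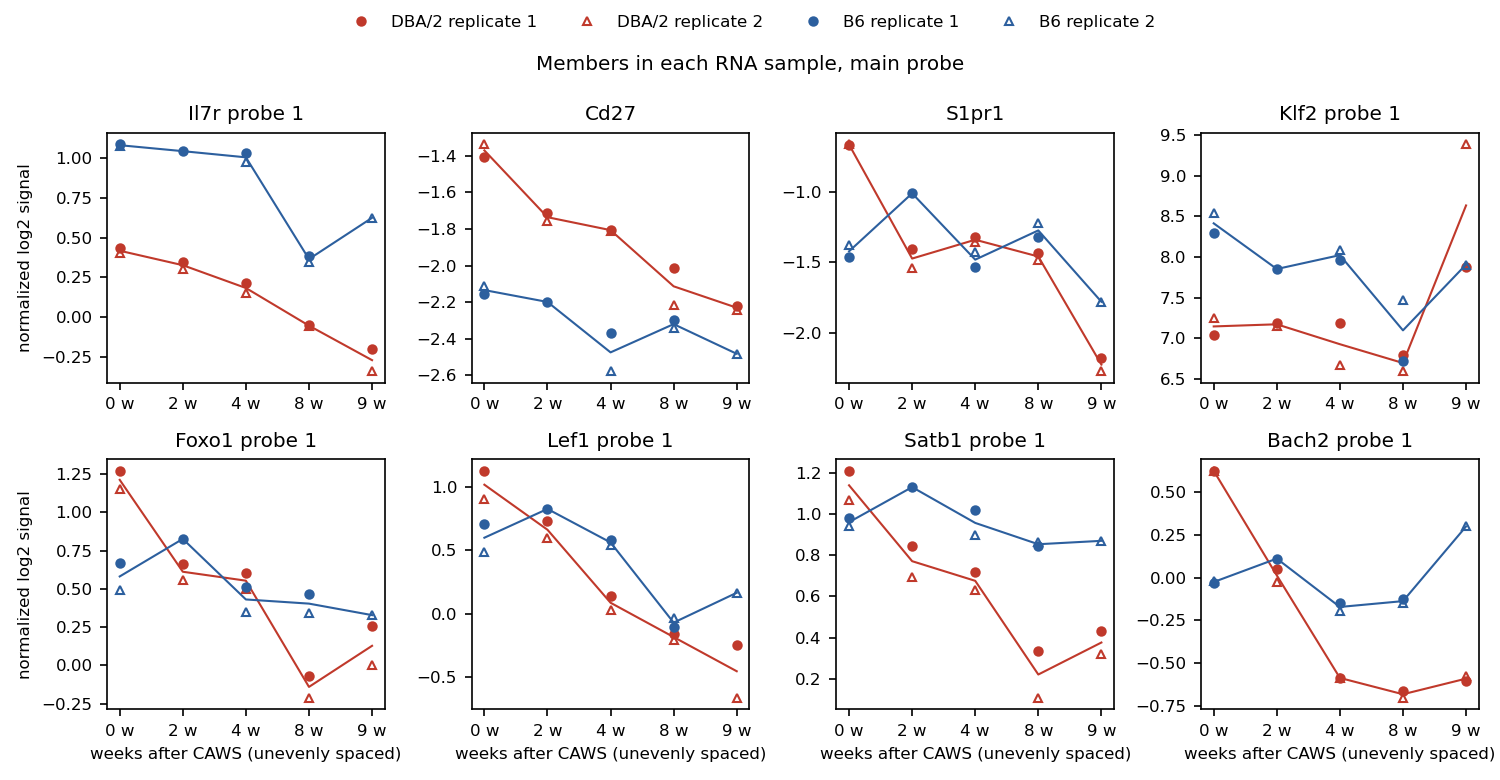
Normalized log2 signal (vertical axis, 1 panel per gene, own scale) of the brightest probe in each of the 18 RNA samples against weeks after CAWS; filled circles are replicate 1, open triangles replicate 2, red DBA/2, blue B6, and lines join group means. DBA/2 signals of all genes but Klf2 lie lower from 4 w on than at 0 w. In B6 mice the signals at 8 w lie lower than at 0 w for all genes but S1pr1, and Il7r and Lef1 pass the threshold there.

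Il7r encodes the IL-7 receptor alpha chain, which also serves the receptor for TSLP. Its probe 1 (chr15:9450946-9451005 of mm8, minus strand) read 0.43 and 0.40 in the 2 DBA/2 samples at 0 w, 0.35 and 0.30 at 2 w, 0.22 and 0.15 at 4 w, −0.05 and −0.06 at 8 w, and −0.20 and −0.34 at 9 w. In B6 mice it read 1.09 and 1.08 at 0 w, 1.05 at 2 w, 1.03 and 0.98 at 4 w, 0.38 and 0.35 at 8 w, and 0.62 at 9 w. Every B6 sample up to 4 w lay above every DBA/2 sample, and the samples of 0 w and 8 w did not overlap in either strain. In DBA/2 mice Il7r changed by −0.47 ± 0.07 (SE) at 8 w and by −0.69 ± 0.07 at 9 w, with limma adjusted p of 0.00139 and 0.000161. The B6 changes were −0.72 ± 0.07 at 8 w and −0.46 ± 0.09 at 9 w, with adjusted p of 0.000136 and 0.0121, the latter 0.0561 without B6 0 w replicate 1. Of the 8 genes it was the one whose mean change at 4 w and 8 w differed least between the strains, by 0.04 (95% interval −0.16 to 0.25), an interval that still allows a difference of 0.25 in size. Probe 2 was dim (well above background in 14 of 18 samples) and fell in DBA/2 mice at 9 w, where neither sample was well above background.

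Cd27 encodes a TNF receptor family member that costimulates lymphocytes when bound by CD70. Its probe (chr6:125198677-125198736 of mm8, minus strand) read −1.41 and −1.34 in DBA/2 mice at 0 w, −1.71 and −1.76 at 2 w, −1.80 and −1.81 at 4 w, −2.01 and −2.21 at 8 w, and −2.22 and −2.24 at 9 w. In B6 mice all 8 samples lay between −2.58 and −2.11, below every DBA/2 sample up to 4 w. Cd27 fell in DBA/2 mice at each of the 4 later weeks, with changes from −0.36 ± 0.09 at 2 w to −0.86 ± 0.09 at 9 w and adjusted p from 0.0276 to 0.000184. The 2 w call was lost without any 1 of the 4 DBA/2 samples of 0 w and 2 w (adjusted p up to 0.143), and the 4 w call without DBA/2 0 w replicate 2 or either 4 w sample (adjusted p up to 0.0847). The B6 change at 4 w was −0.34 ± 0.09 (adjusted p = 0.0369), a call that was lost when any of several single samples was left out, with adjusted p up to 0.226 without B6 4 w replicate 2. The strain difference of the change passed at 8 w (−0.56 ± 0.13, adjusted p = 0.0182, up to 0.0659 when 1 sample was left out) and missed at 4 w (−0.09 ± 0.13, adjusted p = 0.75).

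S1pr1 encodes the receptor by which lymphocytes sense sphingosine-1-phosphate and enter the blood or lymph. Its probe (chr3:115703106-115703165 of mm8, minus strand) read −0.66 in both DBA/2 samples at 0 w, −1.40 and −1.54 at 2 w, −1.32 and −1.36 at 4 w, −1.43 and −1.48 at 8 w, and −2.18 and −2.27 at 9 w. In B6 mice it read −1.46 and −1.38 at 0 w, −1.01 at 2 w, −1.54 and −1.43 at 4 w, −1.32 and −1.22 at 8 w, and −1.78 at 9 w. The DBA/2 signal stood above all B6 samples at 0 w, within their range from 2 w to 8 w, and below all of them at 9 w. The change was already −0.81 ± 0.08 at 2 w (adjusted p = 0.00036). It was −0.80 ± 0.08 after 8 w and −1.57 ± 0.08 after 9 w, with adjusted p of 0.000127 and 3.98e-06. In B6 mice the single 2 w sample was higher by 0.41 ± 0.10 (adjusted p = 0.026), which missed the threshold without either 0 w sample (adjusted p = 0.11 and 0.056).

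Klf2 encodes a Krüppel-like factor that drives S1pr1 and keeps T cells quiescent, and its 2 probes disagree. Probe 1 (chr8:75248851-75248910 of mm8, plus strand) is among the brightest of the array, with a higher mean on 0.11% of probes, and the scanner software took its signal from the scan at low gain on all 19 arrays without marking it saturated on any. It read 7.04 and 7.25 in DBA/2 mice at 0 w, 6.79 and 6.59 at 8 w, and 7.88 and 9.39 at 9 w, and in B6 mice 8.29 and 8.54 at 0 w and 6.71 and 7.48 at 8 w. Probe 2 (chr8:75250227-75250286, plus strand), read at normal gain, gave 4.68 and 4.77 in DBA/2 mice at 0 w, 4.36 and 4.46 at 8 w, and 4.19 and 4.04 at 9 w, and stayed between 4.12 and 4.37 in all B6 samples. In DBA/2 mice at 9 w probe 1 was higher than at 0 w by 1.49 ± 0.42 (adjusted p = 0.027) and probe 2 lower by 0.61 ± 0.08 (adjusted p = 0.00061). The rise of probe 1 was lost without DBA/2 9 w replicate 2 (0.74, adjusted p = 0.14), whose array has 1187 spots marked as outliers against 64 to 180 on the others, and also without either DBA/2 0 w sample (adjusted p = 0.12 and 0.078). No direction is therefore given for Klf2. At 8 w probe 2 gave −0.32 ± 0.08 (adjusted p = 0.0207, lost without DBA/2 0 w replicate 2 or DBA/2 8 w replicate 1) where probe 1 gave −0.45 ± 0.42 (adjusted p = 0.51).

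**Figure D2:**
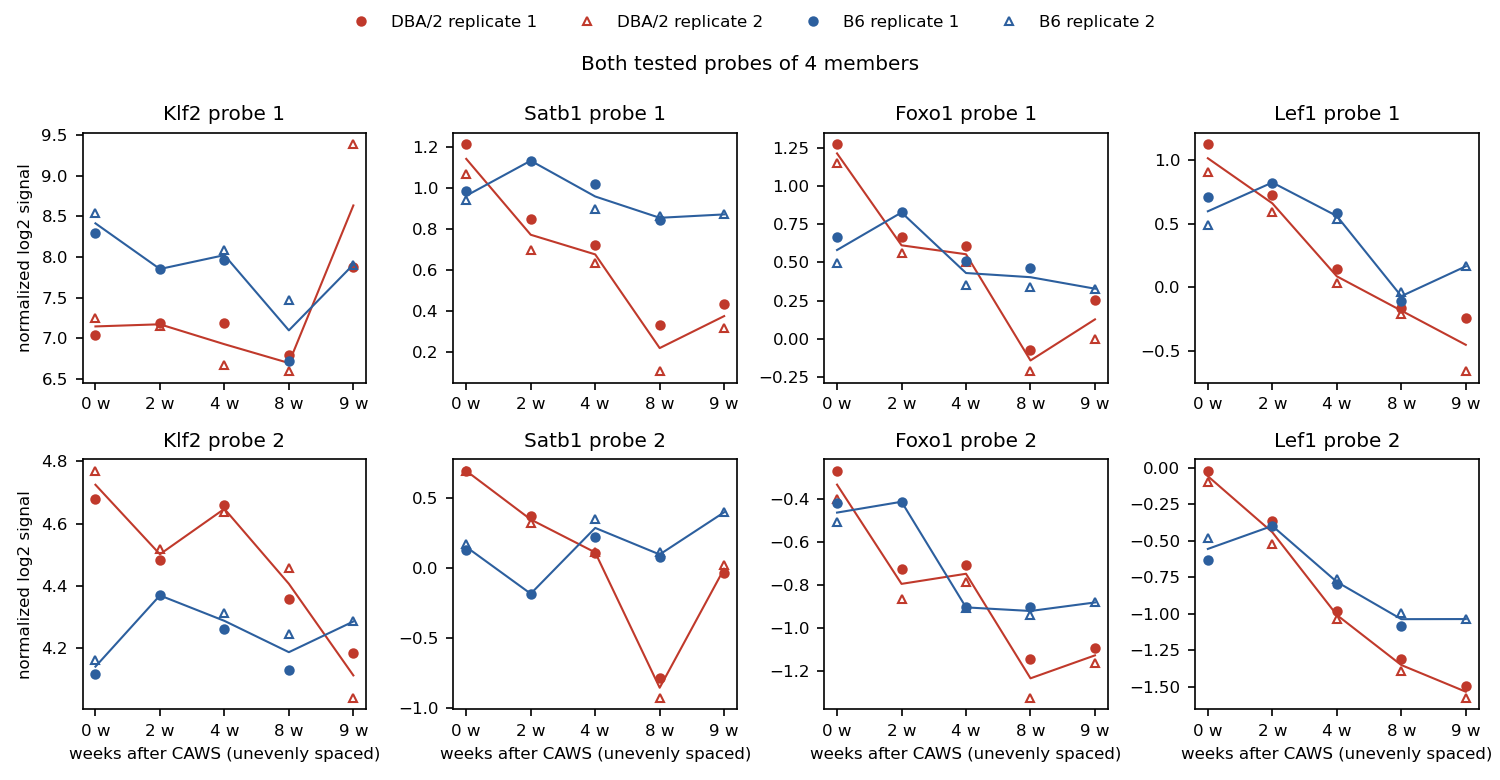
Normalized log2 signal (vertical axis, own scale per panel) of both tested probes of Klf2, Satb1, Foxo1 and Lef1 in each sample against weeks after CAWS; symbols and colours as by strain and replicate in the legend, lines join group means. The Klf2 probes move oppositely in DBA/2 mice at 9 w, and the probes of each other gene fall together in DBA/2 mice.

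Foxo1 encodes a forkhead transcription factor that IL-7 and antigen receptor signals switch off through Akt. Its probe 1 (chr3:52434190-52434249 of mm8, plus strand) read 1.27 and 1.15 in DBA/2 mice at 0 w, 0.67 and 0.56 at 2 w, 0.61 and 0.50 at 4 w, −0.07 and −0.21 at 8 w, and 0.26 and 0.00 at 9 w. The 8 B6 samples lay between 0.33 and 0.83. Foxo1 fell in DBA/2 mice at every later week, with a change of −0.60 ± 0.12 by 2 w and −1.35 ± 0.12 by 8 w (adjusted p of 0.00857 and 4.22e-05). The 2 w call was lost without DBA/2 0 w replicate 1 or DBA/2 2 w replicate 2. In B6 mice probe 1 gave −0.15 ± 0.12 for 4 w and −0.18 ± 0.12 for 8 w (adjusted p of 0.487 and 0.34). Probe 2 (chr3:52437296-52437355) fell in B6 mice too, with a mean change of −0.45 ± 0.08 (adjusted p = 0.00479) against −0.66 ± 0.08 in DBA/2 mice (adjusted p = 0.000343), and its strain difference (−0.21 ± 0.11, adjusted p = 0.29) missed the threshold that probe 1 passed (−0.84 ± 0.15, adjusted p = 0.00504). The B6 call of probe 2 was lost without B6 0 w replicate 1, where the change was −0.40.

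Lef1 encodes a partner of β-catenin that, with Tcf7, maintains naive and early T cells. Its probe 1 (chr3:131213273-131213332 of mm8, plus strand) read 1.13 and 0.90 in DBA/2 mice at 0 w, 0.73 and 0.59 at 2 w, 0.14 and 0.03 at 4 w, −0.16 and −0.21 at 8 w, and −0.24 and −0.66 at 9 w. In B6 mice it read 0.71 and 0.49 at 0 w, 0.82 at 2 w, 0.58 and 0.54 at 4 w, −0.10 and −0.03 at 8 w, and 0.17 at 9 w. From 4 w on, all DBA/2 samples lay below the 0 w samples, and in B6 mice those of 8 w and 9 w did. The changes of Lef1 in DBA/2 mice were −0.93 ± 0.14, −1.20 ± 0.14 and −1.47 ± 0.14 at these last 3 weeks (adjusted p of 0.00248, 0.000277 and 9.77e-05). In B6 mice the 8 w change was −0.67 ± 0.14 (adjusted p = 0.00891), which missed the threshold without B6 0 w replicate 1 or B6 8 w replicate 1 (adjusted p of 0.0719 and 0.0533). Probe 2 gave DBA/2 changes of −0.95, −1.29 and −1.48 at the same weeks, all past the threshold.

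Satb1 encodes a chromatin organizer that is abundant in T cells. Its probe 1 (chr17:51204741-51204800 of mm8, minus strand) read 1.21 and 1.07 in DBA/2 mice at 0 w, 0.85 and 0.69 at 2 w, 0.72 and 0.63 at 4 w, 0.33 and 0.11 at 8 w, and 0.43 and 0.32 at 9 w. The 8 B6 samples lay between 0.84 and 1.13. Satb1 fell in DBA/2 mice at every later week, most at 8 w, with −0.92 ± 0.10 for probe 1 (adjusted p = 0.000205) and −1.55 ± 0.08 for probe 2 (chr17:51272068-51272127, adjusted p = 1.3e-06). With probe 1 the 2 w call was lost when most single samples were left out (adjusted p up to 0.24), and the 4 w call without DBA/2 0 w replicate 1 or DBA/2 4 w replicate 2 (adjusted p of 0.107 and 0.1). The B6 mean changes were −0.06 ± 0.09 and 0.04 ± 0.07 with the 2 probes (adjusted p = 0.77 with both).

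Bach2 encodes a repressor that holds back effector differentiation in T cells and plasma cell differentiation in B cells, and over the mean of 4 w and 8 w its change in DBA/2 mice was larger than those of the other 7 genes, though not at 2 w, 8 w or 9 w alone. Its probe 1 (chr4:32909704-32909763 of mm8, plus strand) read 0.62 and 0.63 at 0 w, 0.05 and −0.03 at 2 w, −0.59 and −0.58 at 4 w, −0.66 and −0.70 at 8 w, and −0.61 and −0.58 at 9 w. In B6 mice it read −0.03 and −0.02 at 0 w, 0.11 at 2 w, −0.15 and −0.19 at 4 w, −0.12 and −0.15 at 8 w, and 0.30 at 9 w. DBA/2 samples thus moved from above every B6 sample at 0 w to below every B6 sample from 4 w on. The changes by 2 w, 4 w and 8 w were −0.61 ± 0.07, −1.21 ± 0.07 and −1.31 ± 0.07, with adjusted p of 0.000457, 4.72e-06 and 1.21e-06. The single B6 sample at 9 w was higher than 0 w by 0.33 ± 0.08 (adjusted p = 0.035), a call lost when any of several single samples was left out (adjusted p = 0.121 without B6 0 w replicate 1).

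Week by week in DBA/2 mice, 5 of the 8 genes fell at 2 w (Cd27, S1pr1, Foxo1, Satb1 and Bach2), 6 at 4 w with Lef1, and 7 at 8 w and at 9 w with Il7r, beside the rise of Klf2 probe 1 at 9 w. Of all probes tested, 15.7%, 14.8%, 24% and 27.6% passed at these weeks, with 7.81%, 7.29%, 14% and 14.3% falling. In B6 mice 1 gene rose at 2 w (S1pr1), 1 fell at 4 w (Cd27), 2 fell at 8 w (Il7r and Lef1), and at 9 w Il7r fell and Bach2 rose, where 12.9%, 15.6%, 21.2% (10.2% falling) and 9.27% of all probes passed. A count of 1 gene in 8 is near the background share at 2 w and 4 w. At 2 w the count in DBA/2 mice was 2 without DBA/2 0 w replicate 1 or without DBA/2 2 w replicate 2, as Satb1, Cd27 and Foxo1 were lost, and at 4 w it was 4 without DBA/2 4 w replicate 2, as Satb1 and Cd27 were lost. These counts at 2 w and 4 w were 0 and 2 with normexp and 0 and 1 relative to T cell genes. The DBA/2 arrays of 0 w, 2 w, 4 w and 8 w share 1 slide within each replicate, and the change within the slide was negative in both replicates at 4 w and 8 w for each of the 7 genes, for Bach2 −1.21 and −1.21 at 4 w and −1.29 and −1.33 at 8 w. The 9 w arrays lie on other slides than the 0 w arrays, so that slide and week cannot be told apart there.

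**Figure D3:**
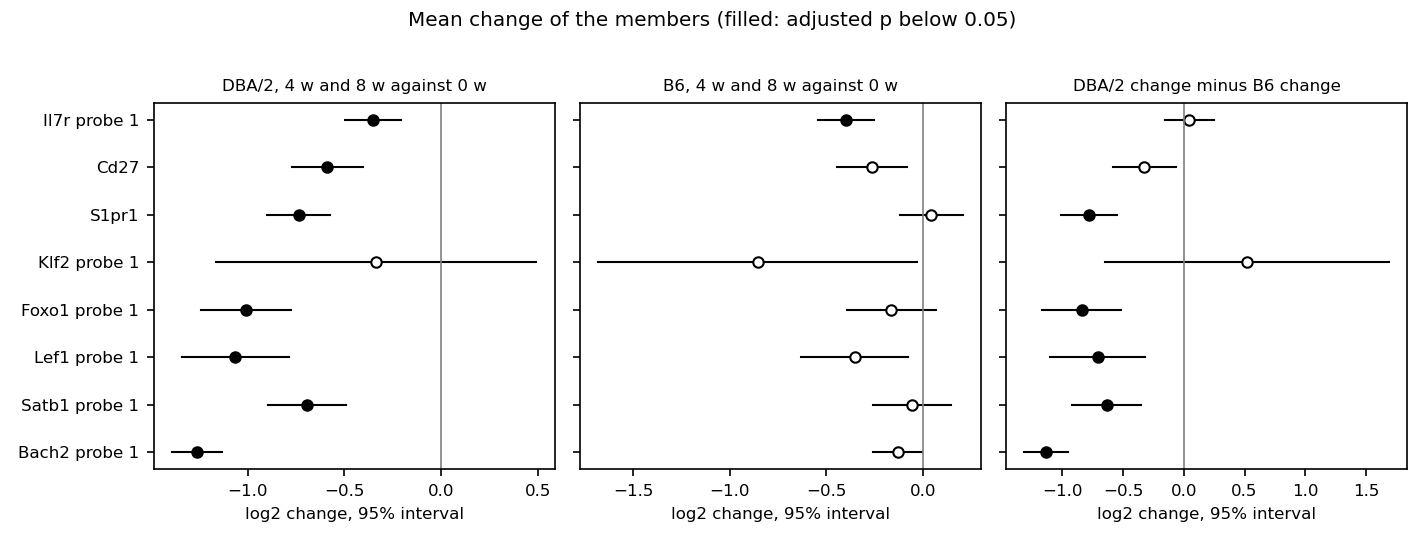
Log2 change with its 95% interval (horizontal axis) of the brightest probe of each gene between 0 w and the mean of 4 w and 8 w in DBA/2 mice (left), in B6 mice (middle), and the DBA/2 change minus the B6 change (right); filled points have a limma adjusted p below 0.05. In the left panel 7 points are filled, in the middle Il7r alone, and in the right Bach2, Foxo1, S1pr1, Lef1 and Satb1.

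The strain comparison asks whether these falls differ between mice with lethal and with milder vasculitis, and 5 of the 8 genes fell more in DBA/2 than in B6 mice over the mean of 4 w and 8 w. The differences were −1.13 ± 0.08 for Bach2 (limma adjusted p = 3.93e-05), −0.84 ± 0.15 for Foxo1, −0.78 ± 0.10 for S1pr1 (adjusted p = 0.00111), −0.71 ± 0.17 for Lef1 (adjusted p = 0.0268) and −0.64 ± 0.13 for Satb1 (adjusted p = 0.0107). Of all probes 13.2% passed, 6.79% in this direction. At 4 w alone 3 genes passed (Bach2, S1pr1 and Lef1), with a background of 11.7% (4.45%), and at 8 w alone 5 passed (Bach2, Foxo1, S1pr1, Satb1 and Cd27), with a background of 17.5% (10.3%). Without DBA/2 0 w replicate 1 the count over the mean was 3, since Lef1 (adjusted p = 0.114) and Satb1 (adjusted p = 0.055) were lost, and Lef1 was also lost without several other single samples. With normexp background correction no brightest probe of a member passed, Bach2 gave −0.93 (adjusted p = 0.0585) and Satb1 probe 2 −0.94 (adjusted p = 0.032), and 90 of all probes passed in place of 3032.

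At 0 w itself the strains differed, with 5 genes higher in DBA/2 mice by their brightest probes: Cd27 by 0.76 ± 0.09, S1pr1 by 0.76 ± 0.08, Bach2 by 0.65 ± 0.07, Foxo1 by 0.63 ± 0.12 and Lef1 by 0.42 ± 0.14 (limma adjusted p from 6.73e-05 to 0.0492). Il7r was lower in DBA/2 mice by 0.67 ± 0.07 (adjusted p = 0.000117), and Klf2 was lower by 1.27 ± 0.42 with probe 1 (adjusted p = 0.045) and higher by 0.58 ± 0.08 with probe 2 (adjusted p = 0.00056). The dimmer probes did not always give the same picture. Foxo1 probe 2 had close group means at 0 w, −0.33 in DBA/2 and −0.46 in B6 mice. Satb1 probe 2 stood higher in DBA/2 mice, with 0.69 against 0.15, as did Lef1 probe 2, with −0.06 against −0.56. Il7r probe 2 had −4.36 against −4.10. Of all probes 32.7% passed at 0 w, 17.3% higher and 15.4% lower in DBA/2 mice. The Lef1 and Klf2 probe 1 calls were lost without any 1 of the 4 samples of 0 w. Both were also lost without any of several samples of later weeks, which do not enter the comparison. The same 0 w samples enter the baseline and every change, so these comparisons are not independent. In B6 mice the summed level of 9 hepatocyte genes, on a log2 scale, was 5.53 and 5.50 at 0 w and 4.64 and 4.56 at 8 w, against −0.60 to 0.35 in the other B6 samples and −0.63 to 0.72 in DBA/2 mice, so that these genes were high in the B6 0 w and 8 w samples. Their part in the B6 changes was not tested. The summed level of 5 erythroid genes also varied. It was 11.94 and 11.86 in B6 mice at 0 w, 10.74 and 10.73 in B6 mice at 8 w, and 11.04 and 10.93 in DBA/2 mice at 0 w. The part of erythroid RNA was not tested either. Strain and slide cannot be told apart at 0 w, 2 w, 4 w or 8 w, since no slide with DBA/2 arrays of these weeks holds a B6 array. B6 8 w replicate 1 is the only array of the series on its slide, so its change from 0 w crosses slides.

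Markers of other cells moved with the same weeks. Over the mean of 4 w and 8 w in DBA/2 mice, 8 of 12 T cell markers fell (median −0.43), as did 5 of 7 B cell markers (median −0.66), with Cd6 at −0.94, Cd5 at −0.77, Cd22 at −0.79 and Cd79b at −0.66. All 8 neutrophil markers tested rose (median 2.34), with Camp at 2.54 and S100a8 at 2.44, and 5 of 6 monocyte markers rose (median 1.31). Of all probes 13.2% fell and 9.73% rose in this comparison. The summed level of the neutrophil markers was 6.73 and 6.72 in DBA/2 mice at 0 w and 8.48 and 8.37 at 4 w, that of T cell markers 4.33 and 4.35 and then 3.98 and 3.92. In B6 mice all 8 neutrophil markers rose as well (median 2.19) and 6 of 12 T cell markers fell (median −0.31), where 7.28% of all probes rose and 7.66% fell.

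Expressed relative to Cd3d, Cd3e and Cd3g, genes of the T cell receptor complex, 3 of the 8 genes still fell in DBA/2 mice over the mean of 4 w and 8 w: Bach2 by 0.94 (adjusted p = 0.00106), Lef1 by 0.74 (adjusted p = 0.0294) and Foxo1 by 0.69 (adjusted p = 0.0241). Relative to the B cell genes Cd79a, Cd79b and Ms4a1, a set chosen after seeing the data, the changes of these 3 genes were −0.97, −0.77 and −0.72 (adjusted p = 0.00124, 0.0133 and 0.0189). Il7r showed −0.03 relative to the T cell genes and −0.06 relative to the B cell genes (adjusted p = 0.935 and 0.861), and S1pr1 showed −0.42 and −0.45 (adjusted p = 0.107 and 0.0706). Satb1 differed by probe, with −0.37 and −0.40 with probe 1 (adjusted p = 0.198 and 0.166) and −0.75 and −0.78 with probe 2 (adjusted p = 0.00697 and 0.00867). Of all probes 13.8% passed relative to the T cell genes and 12.7% relative to the B cell genes, 1.25% and 1.3% falling. These scalings moved the median change of all probes from −0.14 to 0.18 and 0.15. The strain difference passed under both among the brightest probes for Bach2 alone (−1.12, adjusted p = 0.00855, and −1.01, adjusted p = 0.0174), and for Satb1 probe 2.

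**Figure D4:**
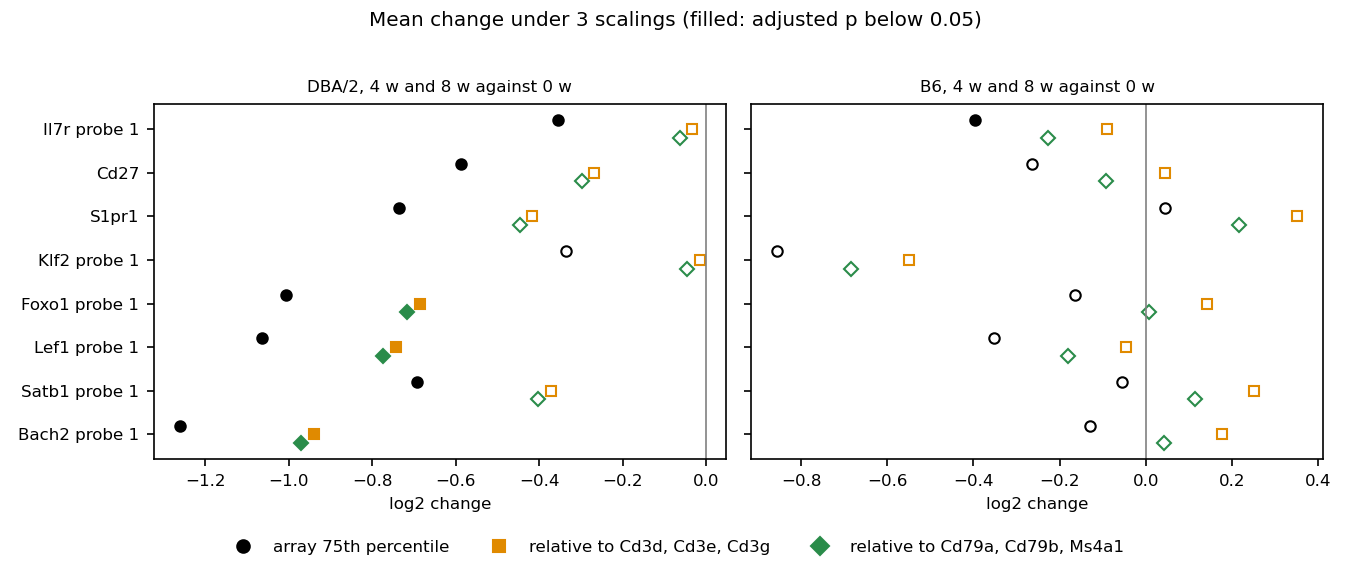
Log2 change between 0 w and the mean of 4 w and 8 w (horizontal axis) of the brightest probe of each gene in DBA/2 mice (left) and B6 mice (right), scaled to the array's 75th percentile (black circles), to 3 T cell receptor complex genes (orange squares) or to 3 B cell genes (green diamonds); filled symbols have an adjusted p below 0.05. In DBA/2 mice Bach2, Lef1 and Foxo1 are filled under all 3 scalings, and Il7r lies at −0.03 and −0.06 relative to the lymphocyte genes.

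The pathway partners of the members did not share one direction, and their counts stand against 9.73% of all probes rising and 13.2% falling in this comparison. Of 8 tested genes of IL-7 receptor signalling, 3 rose and 1 fell in DBA/2 mice over the mean of 4 w and 8 w: the TSLP receptor chain Crlf2 rose by 0.48 ± 0.07, the feedback inhibitors Cish and Socs1 by 0.45 ± 0.09 and 0.34 ± 0.07, and the kinase Jak1 fell by 0.25 ± 0.06 (adjusted p from 0.0011 to 0.014). Of 4 genes around CD27, Siva1, which binds its tail, fell by 0.59 ± 0.12 and the adaptor Traf5 by 0.38 ± 0.09, and the adaptor Traf2 gave −0.24 ± 0.13 and the ligand Cd70, well above background in 4 samples, −0.30 ± 1.58. Of 8 genes of sphingosine-1-phosphate sensing and handling, the lyase Sgpl1 and the G protein subunit Gnai2 rose by 0.33 each, and the kinase Sphk2 fell by 0.31 ± 0.10, with Sphk1 at −0.50 ± 0.18 (adjusted p = 0.083). Of 4 tested relatives and regulators of Foxo1, 3 rose, the kinases Sgk1 by 0.57 ± 0.09, Akt1 by 0.52 ± 0.06 and Akt2 by 0.29 ± 0.07, and the related factor Foxo4 gave −0.25 ± 0.20 (adjusted p = 0.445).

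Among 14 other genes of naive lymphocytes, 9 fell and none rose in DBA/2 mice (median −0.63), where 13.2% of all probes fell and 9.73% rose. In B6 mice 2 fell and 1 rose (median −0.15), where 7.66% of all probes fell and 7.28% rose. Dapl1, a marker of naive T cells, fell by 1.08 ± 0.07 in DBA/2 mice, Nsg2 by 0.76 ± 0.08, the T cell transcription factor Ets1 by 0.73 ± 0.09 and Ccr7, the chemokine receptor for entry into lymph nodes, by 0.54 ± 0.06. Of 12 effector and memory genes, 6 rose and none fell in DBA/2 mice (median 0.60), with the cytotoxic granule protease Gzmb at 1.12 ± 0.10, the death ligand Fasl at 0.93 ± 0.10, the IL-2 and IL-15 receptor chain Il2rb at 0.72 ± 0.07 and the adhesion receptor Cd44 at 0.57 ± 0.09. In B6 mice 1 rose and 5 fell (median −0.56). NK cells express several of these too: 4 of 5 NK cell markers rose in DBA/2 mice (median 0.59) and 5 of 5 fell in B6 mice (median −0.66), and the part of NK cells in the effector genes was not tested.

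Over the 18 samples the normalized signals of Foxo1, Satb1, Lef1 and Bach2 ran together, with Pearson's r of 0.86 between Satb1 and Foxo1, 0.85 between Lef1 and Foxo1, 0.83 between Satb1 and Bach2 and 0.80 between Lef1 and Bach2. Il7r was close to Satb1 (r = 0.78) and apart from Cd27 (r = −0.23), and Klf2 probe 1 had r between −0.49 and 0.27 with the other 7. The samples share groups, slides and cell makeup, so these values are descriptions. The genes whose signals were most like a member over the same samples were Itm2a, Fam78a and Dapl1 for Lef1 (r = 0.95, 0.94 and 0.91), Tecpr1, Bptf and the T cell factor Bcl11b for Foxo1 (0.96, 0.95 and 0.95), Erdr1, Bcl11b and Utrn for Satb1 (0.95, 0.95 and 0.94), and Arglu1, Helz and Snapc4 for Bach2 (0.95, 0.90 and 0.90). They were Rgcc, Ogt and Rec114 for Il7r (0.95, 0.94 and 0.94), Nup35, Gimap3 and Smc4 for Cd27 (0.97, 0.95 and 0.94), Cpsf2, Rhoh and Acyp1 for S1pr1 (0.93, 0.92 and 0.92), and Ptms, Rgs3 and Cox17 for Klf2 probe 1 (each 0.98).

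The promoters of all members with a sequence at hand were read for short motifs of their own factors. RefSeq upstream sequences (build GRCm38.p6, the 250 bases before each start) were held for 7 of the 8 members, with 14 starts in all, but not for S1pr1. The forkhead core GTAAACA, on either strand, was in none of the 14 and in 3.2% of all 32851 such sequences. The Tcf and Lef core TCAAAG was in 2 of the 14, upstream of Bach2 and of the most downstream Lef1 start, and in 13.8% of all. The Bach and AP-1 core TGANTCA was in none and in 6.7% of all. The Klf core CACCC was in 10 of the 14, which belong to 4 of the 7 genes and partly overlap, and in 52% of all. The motifs have few letters, and a match is a match of letters, not a binding site. The sequences of Bach2 and Foxo1, the members with the first and the third largest fall, are shown 5′ to 3′ on the plus strand, ending at the base before the start, with TCAAAG in capitals where present. They are chr4:32417185-32417434 of GRCm38.p6 for Bach2 and chr3:52268087-52268336 of the same build for Foxo1.
Bach2: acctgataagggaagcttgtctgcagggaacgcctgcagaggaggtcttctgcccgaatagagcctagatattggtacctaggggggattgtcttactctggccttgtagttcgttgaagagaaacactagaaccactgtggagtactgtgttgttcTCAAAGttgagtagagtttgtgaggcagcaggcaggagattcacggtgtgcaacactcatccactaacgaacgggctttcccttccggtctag
Foxo1: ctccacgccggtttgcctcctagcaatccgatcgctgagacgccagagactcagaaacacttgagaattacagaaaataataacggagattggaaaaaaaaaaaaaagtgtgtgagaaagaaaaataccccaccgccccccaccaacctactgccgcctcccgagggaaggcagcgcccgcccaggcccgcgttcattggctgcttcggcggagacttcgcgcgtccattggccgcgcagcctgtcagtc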

How the data were processed

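Leukocyte RNA of 18 samples was hybridized to 19 single-color Agilent G4122F arrays, and the scans were extracted by the authors with Feature Extraction 9.5.3.1 (version from the submitters' processing notes). The deposited intensity of each spot, gProcessedSignal, is background-subtracted, detrended within the array and not normalized between arrays. Probe positions are on mm8. The deposited value table holds the same intensity averaged per probe. Of 43379 non-control spots per array 33.9% to 51.4% were well above background, and the number of arrays limits the precision.

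Spots that are controls or carry an outlier mark were removed, spots of a probe were averaged, and log2 intensities were reduced by each array's 75th percentile over 11550 probes well above background on all arrays. Both arrays of B6 0 w replicate 2 were averaged. A filter kept 22965 probes that exceeded background in 2 or more samples (22962 with values in every comparison). limma 3.58.1 (lmFit and eBayes, under R 4.3.3) fitted them with 1 mean per group, 8 residual and 1.37 prior degrees of freedom, in 14 comparisons, each adjusted by the Benjamini-Hochberg method at 0.05. The fit was tested on simulated data. Alternatives changed the background correction, the scaling, the filter, the outlier spots, the probe rule, the blocks for replicate or slide, the weights, the repeated array and the samples. The slide as a random block and the B cell genes used for scaling were chosen after seeing the data. Some genes are not reported here and were left out of the lists and of that scaling. Groups come from the sample titles.

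The members, the other lists and the comparisons were chosen with earlier results of these data known. By a fixed rule every member was named with its probes, of each other pathway or cell type list the 4 genes with the smallest adjusted p in DBA/2 mice were taken, of which some are given here, and the 3 genes most like each member by Pearson's r. Probes were named by accession, file name or synonym in a RefSeq table of GRCm38.p6, which also gave the upstream sequences. Python 3.11.15, pandas 2.3.3 and matplotlib 3.10.9 were used for reading and plotting.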

Additional observations from a re-analysis of the deposited data

Results flagged for a closer look

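The DBA/2 change and the B6 change from 0 w differed, by limma's test of the difference itself, for the following probes, given as the DBA/2 minus the B6 log2 change. Over the mean of 4 w and 8 w the difference was −1.13 for Bach2 probe 1, −1.11 for Satb1 probe 2 and −0.64 for its probe 1, −0.84 for Foxo1 probe 1, −0.78 for S1pr1, and −0.71 and −0.77 for Lef1 probes 1 and 2 (adjusted p from 3.93e-05 to 0.0268). At 4 w it was −1.07 for Bach2 probe 1, −0.89 and −0.73 for Lef1 probes 1 and 2, −0.72 for Satb1 probe 2 and −0.62 for S1pr1 (adjusted p from 9.66e-05 to 0.0192). At 8 w it was −1.50 for Satb1 probe 2 and −0.81 for its probe 1, −1.20 for Bach2 probe 1, −1.18 and −0.44 for Foxo1 probes 1 and 2, −0.95 for S1pr1, −0.81 for Lef1 probe 2 and −0.56 for Cd27 (adjusted p from 6.58e-05 to 0.0443). All these differences are negative, and all share the 0 w samples, at which the strains already differed. The calls of Lef1 probe 1 over the mean and at 4 w, and of Foxo1 probe 2 and Cd27 at 8 w, were lost when any of several single samples was left out. The call of Satb1 probe 1 over the mean was lost without DBA/2 0 w replicate 1. For the 9 hepatocyte genes, whose summed level in B6 mice was highest at 0 w and 8 w, the strain difference of the change had a median of 6.12 at 4 w and 0.19 at 8 w, and their part in the differences above was not tested.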

How the results depend on the processing

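The 95 comparisons of a member probe called in the report were recomputed under each alternative setting where possible, which gave 3422 repeated values. Of these values 2956 kept their call and direction and 442 lost the call. There were 36 values that changed sign with a call under either setting. A further 144 values past no threshold changed sign. The number of members called, written here as DBA/2 at 2 w, 4 w, 8 w, 9 w and over the mean, then B6 likewise, then the strain difference over the mean, at 4 w and at 8 w, then the strains at 0 w, was 5, 6, 7, 8, 7, then 1, 1, 2, 2, 1, then 5, 3, 5, then 7. Leaving out 1 sample gave ranges of 2 to 5, 4 to 7, 7 to 7, 7 to 8 and 7 to 7, then 0 to 1, 0 to 1, 1 to 3, 0 to 2 and 1 to 3, then 3 to 5, 2 to 3 and 4 to 6, then 5 to 7. With normexp it was 0, 2, 4, 5, 4, then 0 in each B6 comparison, then 0, 0, 1, then 2. Scaled to the T cell genes it was 0, 1, 3, 5, 3, then 0, 0, 0, 1, 0, then 1, 1, 1, then 2, and scaled to the B cell genes, a set chosen after seeing the data in place of a planned one that was not run, 1, 1, 5, 3, 3, then 0 in each B6 comparison, then 1, 0, 3, then 2. Under the B cell scaling the 1 member called in DBA/2 mice at 2 w was Il7r, which rose by 0.50 (limma adjusted p = 0.0386). DBA/2 at 2 w gave 3 with the 75th percentile over all probes, the median or each strain alone, and 2 with no filter. B6 at 2 w and 4 w gave 0 with the median, the unscaled value table, no filter or each strain alone, and B6 at 4 w also with quantile normalization, all probes or slide as a block. B6 at 9 w gave 1 with all probes, the median, the unscaled table or the mean of detected probes, 0 with no filter or each strain alone, and 4 with slide as a fixed or random block. B6 at 8 w gave 7 with the unscaled table, where Il7r, Lef1, Satb1, Bach2, Cd27 and Foxo1 passed as rises. B6 over the mean gave 0 with no filter, 2 with the mean of detected probes, the floor, the second array, slide as a block or the stricter filter, 3 with array weights, the replicate block or slide as a random block, and 4 with the unscaled table. Among these 4, Satb1, Bach2 and Foxo1 passed as rises. The strain difference gave 3 over the mean and 1 at 4 w with no filter, and 5 at 4 w with the replicate block and with either slide block. The cause of these moves was not tested. Replicate numbers were not taken to pair the samples, since correlations of same-numbered deviations ran from 0.017 to 0.41. They were 0.34 to 0.41 among DBA/2 0 w to 8 w, which share slides. Between DBA/2 9 w and B6 8 w, whose same-numbered arrays share no slide, the correlation was 0.35. The replicate block gained 10 calls and kept all 95 called comparisons.

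Reversed values were these. Scaled to the B cell genes, DBA/2 at 2 w gave 0.50 for Il7r probe 1, 0.21 for Lef1 probe 2, 0.22 and 0.24 for Satb1 probes 1 and 2, 0.23 for Cd27 and 0.13 for Foxo1 probe 2; at 9 w 0.17 and 0.0062 for Il7r probes 1 and 2, 0.25 for Klf2 probe 2, 0.098 and 0.16 for Satb1, 0.0036 for Cd27 and 0.067 for Foxo1 probe 2; and B6 at 2 w −0.0017 for S1pr1. Klf2 probe 2 gave 0.15 at 8 w in DBA/2 mice scaled to the T cell genes. Il7r probe 2 gave 0.93 at 9 w with normexp. With the unscaled table B6 at 8 w gave 0.30 for Il7r probe 1, 0.35 and 0.54 for Lef1, 0.91 and 0.97 for Satb1, 0.91 for Bach2, 0.83 for Cd27, and 0.84 and 0.56 for Foxo1; at 9 w 0.038 for Foxo1 probe 2; over the mean 0.13 for Il7r probe 1, 0.17 for Lef1 probe 2, 0.47 for Satb1 probe 1, 0.40 for Bach2, and 0.36 and 0.078 for Foxo1. Its strain difference for Il7r probe 1 was −0.56 over the mean and −0.94 at 8 w, with −1.17 for probe 2 at 8 w, and at 0 w 0.15. Scaling moved the share of called probes that rose in DBA/2 mice over the mean from 42.4% to 91.0% with the T cell genes and 89.8% with the B cell genes.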
